A study of Homo sapiens with 19 samples.

Results

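Complement and acute phase genes were followed through mRNA-seq of HepG2, a human liver cancer cell line. They are 43 genes chosen by symbol from the 34825 gene symbols measured, and all 43 were found. There were 2 experiments, each with its own table of values. In the first, cells received 50 nM of a control siRNA (NTG), of siINO80#1 or of siINO80#2, and 3 libraries (A, B and C) were made of each group. In the second, cells were given 1 µM EPZ-6438, an inhibitor of the methyltransferase EZH2 that lays down H3K27me3, or DMSO for 3 days before transfection with NTG or with siMCRS1. That experiment had 2 libraries of DMSO-treated NTG cells, 3 of DMSO-treated siMCRS1 cells, 3 of EPZ-6438-treated NTG cells and 2 of EPZ-6438-treated siMCRS1 cells. Libraries of the second experiment are called here by the number or letter of their column, which for DMSO-treated NTG cells is 1 or 3. All cells were harvested 72 h after transfection, and all came from 1 cell line grown without an added inflammatory stimulus in the protocol given. INO80 is the ATPase of the INO80 chromatin remodelling complex, and MCRS1 is a subunit of that complex and of the NSL complex. Only 1 siRNA against MCRS1 was used, so an effect of the loss of MCRS1 and an effect of that siRNA on other transcripts cannot be told apart.

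Complement is a cascade of plasma proteases and binding proteins made largely by hepatocytes. It starts from recognition molecules such as mannose-binding lectin, runs through the C3 and C5 convertases and ends in the membrane attack complex, while plasma and membrane regulators hold it in check. Acute phase proteins are liver plasma proteins whose synthesis changes in inflammation, driven mainly by interleukin-6 acting through gp130 and STAT3, by interleukin-1 acting through NF-kB, and by C/EBP factors. Positive acute phase proteins such as haptoglobin go up and negative ones such as transthyretin go down.

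The deposited values were counts per gene after division by each library's size factor, and are called normalized counts here. They do not allow for transcript length, so levels are compared between libraries and not between genes. Libraries held 17093574 to 25369547 reads (INO80) and 26038505 to 47397233 reads (drug). INO80 itself averaged 1264 ± 82.2 normalized counts (SD, n = 3) with NTG, 608 ± 31.3 with siINO80#1 and 460 ± 21.7 with siINO80#2. MCRS1 averaged 1430 ± 208 (n = 2) with NTG and 114 ± 28.5 (n = 3) with siMCRS1 in DMSO, and 1363 ± 166 (n = 3) and 108 ± 24.8 (n = 2) in EPZ-6438. The 7 hepatocyte lineage markers examined all averaged 10 or more normalized counts in both experiments. As these are bulk samples, fewer cells making a transcript and less transcript per cell cannot be told apart.

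Most of the complement and acute phase genes were expressed. In each experiment 38 of the 43 passed a minimum mean of 10 normalized counts, and these were tested with limma on log2(normalized count + 1) among the 14034 or 14312 genes that passed. A gene was called when its Benjamini-Hochberg adjusted p, taken over all genes tested, was under 0.05, and all fold changes below are on that log2 scale with their standard error (SE). The 5 genes that did not pass were C9, the pore-forming component of the membrane attack complex, CRP, the classical acute phase pentraxin, the serum amyloid genes SAA1 and SAA2, and LBP, the lipopolysaccharide-binding protein. None of these 5 was above 5.61 normalized counts in any of the 19 libraries, where a level of 3 reads was worth 2.13 to 4.30. The 43 genes together took 1.06% to 1.40% of all normalized counts in NTG libraries, 1.01% to 1.27% with siINO80#1 and 0.958% to 1.08% with siINO80#2. In the drug experiment their share was 0.714% to 0.807% in DMSO-treated NTG libraries, 0.596% to 0.781% with siMCRS1, 0.970% to 1.08% in EPZ-6438-treated NTG libraries and 0.770% to 0.895% with both. SERPINA1, which encodes the elastase inhibitor alpha-1 antitrypsin, made up 30.2% to 42.6% of that sum and so weighs heavily in it.

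More of these genes were lower than higher after each knockdown. With siINO80#1, 4 of the 38 were called higher and 10 lower. Of all genes tested, 20.7% and 20.8% were called in those directions (41.6% in all). With the replicate letter as a block 6 members were higher and 11 lower, and 6327 genes were called in all, against 5833. With siINO80#2, 3 were higher and 19 lower, against 26.6% and 28.4% of all genes (55% in all). With siMCRS1 in DMSO, 5 were higher and 10 lower, against 23.1% and 24.6% (47.7% in all). They were 3 and 14 when libraries were scaled to equal totals and 3 and 12 under quantile normalization. Those scalings called 6999 and 6464 genes in all, against 6830 without them. With siMCRS1 in EPZ-6438 5 were higher and 14 lower, against 26.8% and 26.9% (53.7% in all). Without library B of EPZ-6438 and siMCRS1, which left 1 library in that group, fewer of the 38 and fewer of all genes were called there. The median log2 fold change of the 38 was -0.10, -0.44, -0.13 and -0.24 in these 4 comparisons, and that of all genes tested was within 0.01 of 0. With single libraries left out, the first of these medians ran from -0.17 to -0.04, and the third ran from -0.20 to 0.03, turning positive without DMSO-treated siMCRS1 library 3. Under equal totals the third was -0.36, where the median of all genes was -0.23. The share of the 38 called was close to or below that of all genes in each comparison. C4BPA, C4BPB, C6, C8A, ITIH4, MBL2 and SAA4 were called lower in each of the 4 comparisons, and CD59 and SERPINA3 were called higher in each. That is 18.4% and 5.26% of the 38, where 11.4% of the 13534 genes tested in both experiments were lower in all 4 and 11.4% higher. The siINO80 comparisons share the NTG libraries, so nothing is read from these shares, while the siMCRS1 comparisons share none with them or with each other.

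Markers of other lineages moved with some groups. The summed level of 4 cholangiocyte markers was 14900 to 17400 normalized counts with NTG, 20500 to 24000 with siINO80#1 and 30200 to 34900 with siINO80#2, and 25400 to 25900 with DMSO and NTG against 35200 to 40900 with siMCRS1. Within it KRT19 was called higher in all 4 knockdown comparisons (0.70, 1.43, 0.97 and 0.76). It was the only one of these markers called higher in any of them. With siMCRS1 in DMSO 1 of the 4 was called lower, and their median log2 fold change was -0.215. HNF4A, a transcription factor that defines hepatocytes, was called lower in the same 4 (-0.45, -1.02, -0.55 and -0.55). Of the 6 hepatocyte markers other than TTR, HNF4A included, 1, 3, 1 and 1 were called lower and 0, 0, 0 and 1 higher. Their median log2 fold changes were 0.19, -0.28, 0.20 and 0.26. The sum of 4 stellate or fibroblast markers was 256 to 281 with NTG, 461 to 485 with siINO80#1 and 286 to 311 with siINO80#2. In the drug experiment it was 338 to 362 with DMSO and NTG against 551 to 907 with siMCRS1, and 194 to 362 with EPZ-6438 and NTG against 792 to 851 with both. Of these genes PDGFRB was called higher with both INO80 siRNAs (1.00 and 0.46), and COL1A1 was called higher with siMCRS1 (1.25 and 2.91) and lower with siINO80#2 (-0.63). The endothelial sum was 207 to 245 with NTG, 244 to 288 with siINO80#1 and 281 to 340 with siINO80#2, and 176 to 281 in the drug experiment. The immune sum, mostly LYZ, was 35900 to 39800, 38400 to 44200 and 47900 to 55600 in the same INO80 groups and overlapped between groups of the drug experiment, and 2 of its 5 genes were at 0 in the whole INO80 experiment. The part of these lineage markers in the falls above was not tested.

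**Figure D1:**
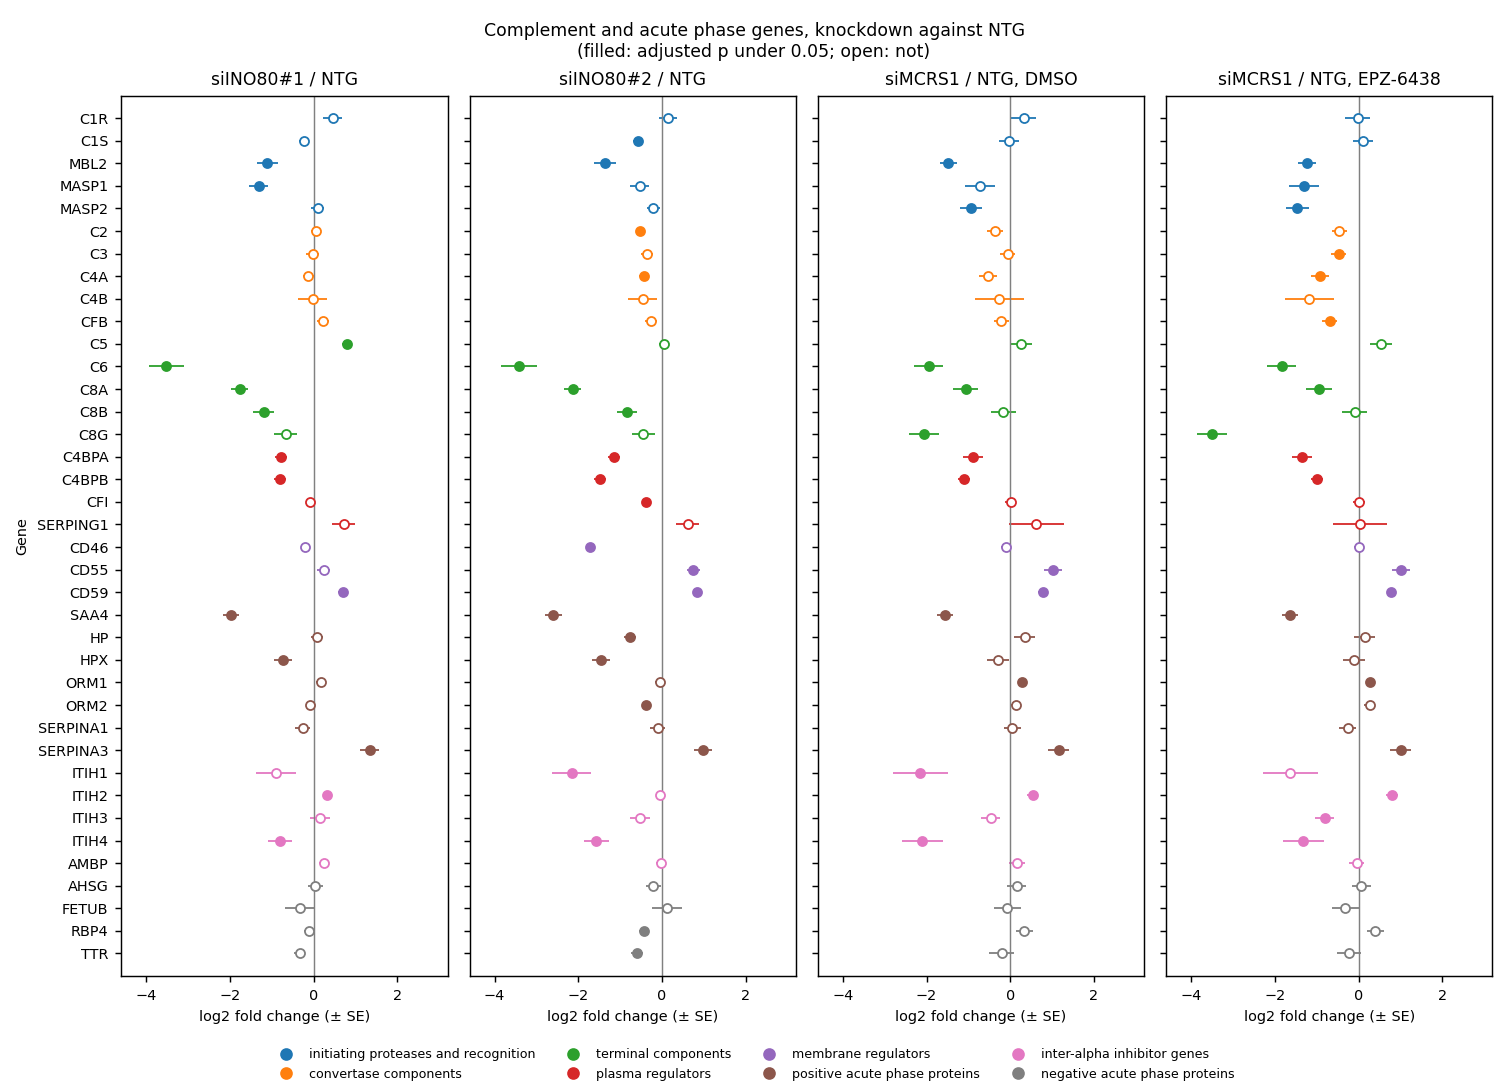
Log2 fold change against NTG (horizontal axis, log2 of normalized count + 1) of the 38 complement and acute phase genes tested, grouped by role, in 4 panels for siINO80#1, siINO80#2, and siMCRS1 in DMSO and in EPZ-6438; bars are the SE and filled points have an adjusted p under 0.05. C6 and SAA4 lie far to the left in every panel, CD59 and SERPINA3 to the right in every panel, and CD46 lies far to the left with siINO80#2, at -1.73.

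Promoter sequence is shown for those of these 9 genes that hold a match to a searched acute phase or liver motif in the 150 bases before the annotated start. Sequences and positions are from RefSeq on GRCh38.p14, which had a promoter entry for 30 of the 43 genes. In the 250 bases before the start, on both strands, the motifs searched were C/EBP (TTGCNNAA), STAT3 (TTCNNNGAA), HNF1 (GTTAATNAT), HNF4 (CAAAGTNCA), NF-kB (GGANTTNCC) and the TATA box (TATAAA). Each sequence is written 5′ to 3′ on the gene's strand and ends just before its start, and capitals mark motif matches, which are C/EBP in SAA4, HNF1 in C4BPA and STAT3 in MBL2, ITIH4 and CD59.
SAA4: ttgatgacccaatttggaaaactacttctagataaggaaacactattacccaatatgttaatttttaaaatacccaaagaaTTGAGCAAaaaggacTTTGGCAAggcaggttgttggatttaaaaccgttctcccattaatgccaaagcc
C4BPA: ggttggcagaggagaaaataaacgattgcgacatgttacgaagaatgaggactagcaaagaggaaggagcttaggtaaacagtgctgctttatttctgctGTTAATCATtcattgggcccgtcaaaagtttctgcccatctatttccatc
MBL2: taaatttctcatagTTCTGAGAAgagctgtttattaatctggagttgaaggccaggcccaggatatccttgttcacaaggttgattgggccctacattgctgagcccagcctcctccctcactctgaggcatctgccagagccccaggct
ITIH4: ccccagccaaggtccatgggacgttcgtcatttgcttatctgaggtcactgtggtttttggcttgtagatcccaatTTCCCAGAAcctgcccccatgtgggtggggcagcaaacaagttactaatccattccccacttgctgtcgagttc
CD59: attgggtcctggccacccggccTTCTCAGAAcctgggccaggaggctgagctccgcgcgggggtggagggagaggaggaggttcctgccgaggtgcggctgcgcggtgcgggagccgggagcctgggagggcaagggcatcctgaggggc
The stretches shown are chr11:18236803-18236952 (minus strand) for SAA4, chr1:207104083-207104232 (plus) for C4BPA, chr10:52772785-52772934 (minus) for MBL2, chr3:52830673-52830822 (minus) for ITIH4 and chr11:33736480-33736629 (minus) for CD59. Further upstream, SAA4 holds another C/EBP match 236 bases before its start, C6 holds one at 159 bases and MBL2 holds 2, at 244 and 230 bases. C4BPB, C8A and SERPINA3 hold none of the 6 motifs in their 250 bases. Of the 30 genes with an entry, 6 hold the C/EBP motif (C1R, C6, MBL2, SAA4, HPX and AHSG), which is 20% against 9.05% of 35116 promoters, and 6 hold the STAT3 motif (CFB, MASP2, MBL2, ITIH4, RBP4 and CD59), 20% against 6.57%. HNF1 was matched in C4BPA alone (3.33% against 0.723%), HNF4 in AHSG alone (against 0.94%), the TATA box in 4 genes (13.3% against 10.7%) and NF-kB in 0 of 30 (against 3.67%). A match is a run of letters and says nothing of binding.

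The terminal components, which assemble the membrane attack complex, held C6, the member with the largest fall after each INO80 siRNA. C6, which joins C5b (5:41142116-41261469, GRCh38.p14), had 115, 117 and 204 normalized counts in NTG libraries A, B and C, 16.7, 4.96 and 16.6 with siINO80#1, and 10.1, 10.7 and 17.0 with siINO80#2. Every INO80 knockdown library was thus far below every NTG library. The mean with either siRNA was about 9% of that with NTG (8.79% and 8.69%), and the log2 fold change was -3.52 (SE 0.43, adjusted p = 0.0001) and -3.41 (SE 0.43, adjusted p = 6.6e-05). C6 had 151 and 104 normalized counts in the DMSO-treated NTG libraries and 36.7, 31.9 and 27.2 with siMCRS1. In EPZ-6438 it had 277, 196 and 304 with NTG and 108 and 46.2 with siMCRS1. The groups did not overlap in either treatment, and siMCRS1 lowered C6 by 1.95 (SE 0.35, adjusted p = 0.00103) and by 1.83 (SE 0.35, adjusted p = 0.00117) on the log2 scale.

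C8 is built of 3 chains, from C8A, C8B and C8G, of which the first pair was called with the INO80 siRNAs. C8A (1:56854797-56918223) had 423, 328 and 449 normalized counts with NTG, 112, 104 and 134 with siINO80#1 and 84.1, 121 and 69.9 with siINO80#2. Both siRNAs took it well below its NTG range, with log2 fold changes of -1.76 (SE 0.20, adjusted p = 7.2e-05) and -2.14 (SE 0.20, adjusted p = 9.9e-06). C8B, next to it at 1:56929207-56966015, had 69.2, 43.1 and 77.8 with NTG, 25.0, 23.8 and 30.6 with siINO80#1 and 31.4, 39.8 and 31.2 with siINO80#2. It fell by 1.19 (SE 0.25, adjusted p = 0.00291) and by 0.84 (SE 0.25, adjusted p = 0.0139). C8G, on another chromosome (9:136945243-136946975), was not called for either INO80 siRNA (-0.67, adjusted p = 0.0687, and -0.44, adjusted p = 0.187). The call for C8B with siINO80#2 was lost without NTG library A (adjusted p = 0.0535) or C (adjusted p = 0.0649).

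With siMCRS1, C8G and C8A were lower and C8B was not called. C8G had 39.3 and 44.9 normalized counts in DMSO-treated NTG libraries and 8.90, 8.81 and 10.0 with siMCRS1, a log2 fold change of -2.07 (SE 0.36, adjusted p = 0.00087). In EPZ-6438 it had 67.9, 45.5 and 52.6 with NTG and 5.60 and 2.66 with siMCRS1, a log2 fold change of -3.50 (SE 0.36, adjusted p = 2.8e-05). The lower of those last libraries was at the level of 3 reads, so C8G was near its limit of detection there. C8A had 610 and 369 with DMSO and NTG, 319, 212 and 170 with siMCRS1, 778, 598 and 555 with EPZ-6438 and NTG, and 424 and 256 with both. It fell by 1.07 (SE 0.31, adjusted p = 0.0151) and by 0.95 (SE 0.31, adjusted p = 0.0233), with no overlap. The first of these calls was lost without DMSO-treated NTG library 1 (adjusted p = 0.168) or DMSO-treated siMCRS1 library 3 (adjusted p = 0.05), and the second without library B of EPZ-6438 and siMCRS1 (adjusted p = 0.232) or library 1 of EPZ-6438 and NTG (adjusted p = 0.0718) or under quantile normalization (adjusted p = 0.0658). C8B was not called (-0.16 and -0.09, adjusted p = 0.695 and 0.822). C5, the precursor of the C5a anaphylatoxin, was called higher with siINO80#1 only (0.78, SE 0.12, adjusted p = 0.00038) and was at 0.04 with siINO80#2.

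Among the recognition and initiating genes, MBL2 and the MASP genes of the lectin pathway were lower in several comparisons. MBL2, mannose-binding lectin (10:52765380-52772784), had 941, 671 and 904 normalized counts with NTG, 414, 377 and 366 with siINO80#1 and 232, 531 and 273 with siINO80#2. All 6 knockdown libraries were below the lowest NTG library, with log2 fold changes of -1.11 (SE 0.25, adjusted p = 0.00544) and -1.36 (SE 0.25, adjusted p = 0.00102). In the drug experiment it had 1062 and 926 with DMSO and NTG, 428, 361 and 291 with siMCRS1, 686, 1159 and 834 with EPZ-6438 and NTG, and 371 and 370 with both. Here too the groups were apart, and MBL2 fell by 1.48 (SE 0.21, adjusted p = 0.00033) and by 1.23 (SE 0.21, adjusted p = 0.00072).

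MASP2, the lectin pathway protease that cleaves C4 and C2 (1:11026523-11047239), was at 183 to 255 normalized counts with NTG, 190 to 238 with siINO80#1 and 160 to 197 with siINO80#2, ranges that overlap. It had 201 and 194 with DMSO and NTG, 104, 101 and 103 with siMCRS1, 204, 337 and 293 with EPZ-6438 and NTG, and 133 and 72.8 with both. It was called with siMCRS1, at -0.94 (SE 0.27, adjusted p = 0.0139) and -1.46 (SE 0.27, adjusted p = 0.00095), though no test compared siMCRS1 with the INO80 siRNAs. The DMSO call was lost without either DMSO-treated NTG library (adjusted p = 0.0778 and 0.056) and under quantile normalization (-0.56, adjusted p = 0.0887). MASP2 overlaps TARDBP, and it is not known if strand was used in counting, so reads of these genes may be mixed. MASP1, whose protease activates MASP2, had 413, 276 and 524 with NTG, 147, 130 and 199 with siINO80#1 and 218, 317 and 283 with siINO80#2. It was called for siINO80#1 (-1.32, SE 0.24, adjusted p = 0.00127) and not for siINO80#2 (-0.54, adjusted p = 0.0779). With siMCRS1 MASP1 was at -0.72 in DMSO (adjusted p = 0.12) and fell by 1.30 in EPZ-6438 (SE 0.36, adjusted p = 0.00999), the latter not without library B of EPZ-6438 and siMCRS1 (adjusted p = 0.144). C1S, the protease that cleaves C4 in the classical pathway, was lower with siINO80#2 (-0.57, SE 0.11, adjusted p = 0.0015), and C1R, which activates C1S, was not called. The replicate letters paired the NTG and siINO80#1 libraries, and with the letter as a block C1S (-0.24, adjusted p = 0.0382) and C1R (0.45, adjusted p = 0.0249) were called for siINO80#1.

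The convertase genes C2, C3, C4A, C4B and CFB supply the enzymes that cleave C3 and C5, and those called were all lower. With siINO80#1 0 of the 5 was called, as with siMCRS1 in DMSO. With siINO80#2 C2 fell by 0.52 (SE 0.10, adjusted p = 0.00156) and C4A by 0.42 (SE 0.12, adjusted p = 0.0129), the latter not without NTG library C (adjusted p = 0.0581). In EPZ-6438, siMCRS1 lowered C4A by 0.92 (SE 0.21, adjusted p = 0.00324) and CFB by 0.69 (SE 0.18, adjusted p = 0.00678). C3 was at -0.47 there (SE 0.18, adjusted p = 0.0497), just inside the threshold. The CFB call was lost without library B of EPZ-6438 and siMCRS1 (adjusted p = 0.0991), and the C3 call was lost without that library (adjusted p = 0.428), without any of 5 others (adjusted p 0.06 to 0.132), and with no filter, no variance trend or a pseudocount of 0.1 (adjusted p 0.0508 to 0.0882). C4A and C4B are nearly identical and reads may have been split between them, and their sum was 8490 ± 1110 normalized counts (SD, n = 3) with NTG, 7847 ± 1090 with siINO80#1 and 6381 ± 410 with siINO80#2.

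Of the plasma regulators, both genes of C4b-binding protein were lower throughout. The alpha chain, from C4BPA, binds C4b and serves factor I as cofactor, and the beta chain, from C4BPB, binds protein S. They lie side by side on chromosome 1, C4BPB at 1:207088860-207099993 and C4BPA at 1:207104233-207144972. C4BPB had 1383, 1464 and 1551 normalized counts with NTG, 822, 837 and 861 with siINO80#1 and 562, 653 and 396 with siINO80#2. The 3 groups were stepwise apart, with log2 fold changes against NTG of -0.80 (SE 0.15, adjusted p = 0.00145) and -1.48 (SE 0.15, adjusted p = 1.4e-05). C4BPA, whose promoter above holds the HNF1 match, had 635, 618 and 806 with NTG, 446, 314 and 439 with siINO80#1 and 296, 299 and 326 with siINO80#2. It fell by 0.79 (SE 0.15, adjusted p = 0.00156) and by 1.15 (SE 0.15, adjusted p = 7.3e-05).

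The same direction was seen with siMCRS1. C4BPB had 2126 and 1882 normalized counts with DMSO and NTG, 1068, 922 and 816 with siMCRS1, 2107, 1758 and 1798 with EPZ-6438 and NTG, and 1024 and 869 with both. It was at 46.7% and 50.1% of NTG, or -1.10 (SE 0.14, adjusted p = 0.00015) and -0.995 (SE 0.14, adjusted p = 0.00019). C4BPA had 508 and 424 with DMSO and NTG, 249, 355 and 175 with siMCRS1, 710, 873 and 775 with EPZ-6438 and NTG, and 309 and 304 with both. It fell by 0.90 (SE 0.24, adjusted p = 0.0105) and by 1.35 (SE 0.24, adjusted p = 0.00082), the first not without DMSO-treated NTG library 1 (adjusted p = 0.0899) or under quantile normalization (-0.63, adjusted p = 0.055). CFI, the protease that inactivates C3b and C4b, was called only with siINO80#2 (-0.38, SE 0.09, adjusted p = 0.00544). SERPING1, the C1 inhibitor, lay at 0.72 and 0.61 with the INO80 siRNAs and was not called (adjusted p = 0.0539 and 0.076), but with the letter as a block it was called for siINO80#1 (adjusted p = 0.024).

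The membrane regulators, which protect the cell's own surface, went the other way, with 1 exception. CD59, which blocks assembly of the membrane attack complex (11:33703010-33736479), is given in full after its values were seen. It had 2437, 3024 and 2513 normalized counts with NTG, 4187, 4377 and 4298 with siINO80#1 and 5490, 4573 and 4221 with siINO80#2. It rose by 0.70 (SE 0.11, adjusted p = 0.00048) and by 0.84 (SE 0.11, adjusted p = 7.3e-05). In the drug experiment CD59 had 4421 and 5610 with DMSO and NTG, 8180, 8741 and 8646 with siMCRS1, 4256, 4116 and 4427 with EPZ-6438 and NTG, and 7048 and 7675 with both. All siMCRS1 libraries were above all NTG libraries, by 0.77 (SE 0.11, adjusted p = 0.00027) and 0.79 (SE 0.11, adjusted p = 0.00018). CD59 overlaps the gene C11orf91.

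CD55, decay-accelerating factor, which breaks up the convertases (1:207321678-207360966), rose with siMCRS1 to 207% and 203% of NTG. It had 841 and 1020 normalized counts with DMSO and NTG, 1478, 2392 and 1902 with siMCRS1, 979, 1196 and 947 with EPZ-6438 and NTG, and 1714 and 2520 with both. The log2 fold change was 1.03 (SE 0.21, adjusted p = 0.00265) and 1.00 (SE 0.21, adjusted p = 0.00246). CD55 was also higher with siINO80#2 (0.75, SE 0.16, adjusted p = 0.00191), and was at 0.24 with siINO80#1 (adjusted p = 0.255). CD46, membrane cofactor protein, which helps factor I to cleave C3b (1:207752038-207795516), had 7629, 7398 and 7735 with NTG, 6694, 6313 and 6550 with siINO80#1 and 2376, 2529 and 2008 with siINO80#2. Its level with siINO80#2 was 30.4% of that with NTG (-1.73, SE 0.08, adjusted p = 2.7e-07), far below every other library of the experiment. With siINO80#1 it was at -0.22 (adjusted p = 0.0591), and with siMCRS1 at -0.09 and 0.00 (adjusted p = 0.539 and 0.982). CD46 overlaps the pseudogene CDCA4P4. Thus neighbours within 1 stretch of chromosome 1 moved apart, with C4BPB and C4BPA lower, CD55 higher and CD46 lower after siINO80#2.

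**Figure D2:**
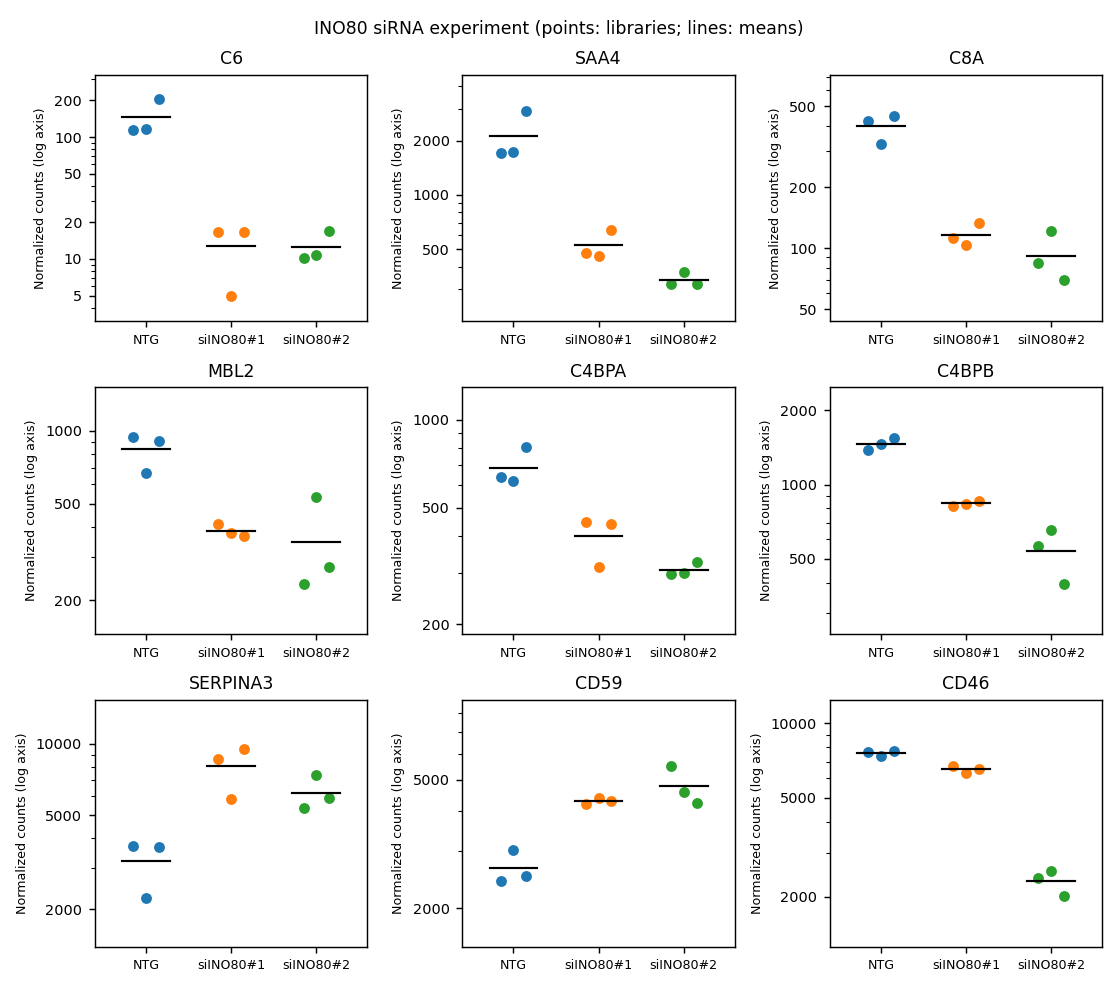
Normalized counts (log axis) of 9 genes in each library of the INO80 experiment, for NTG, siINO80#1 and siINO80#2 (3 libraries each, points), with lines at the group means. C6 drops from 115 to 204 with NTG to 4.96 to 17.0 with either siRNA, CD59 and SERPINA3 lie above NTG with both, and CD46 separates siINO80#2, at 2008 to 2529, from the other groups.

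The genes grouped here as positive acute phase moved in both directions. SAA4 was counted in that group although it is constitutive. With siMCRS1, in either treatment, 2 genes of the group were called higher, and the 1 called lower was SAA4. SAA4, the constitutive serum amyloid A of high-density lipoprotein (11:18231355-18236802), had 1696, 1739 and 2901 normalized counts with NTG, 476, 458 and 641 with siINO80#1 and 322, 372 and 320 with siINO80#2. Its means with the siRNAs were well under the NTG range, at -1.98 (SE 0.20, adjusted p = 2.9e-05) and -2.60 (SE 0.20, adjusted p = 2.3e-06). SAA4 had 1245 and 1505 with DMSO and NTG, 593, 432 and 381 with siMCRS1, 1178, 1474 and 1475 with EPZ-6438 and NTG, and 483 and 396 with both. It was at 34.1% and 32.0% of NTG, or -1.57 (SE 0.19, adjusted p = 0.00013) and -1.64 (SE 0.19, adjusted p = 6.3e-05). The gene overlaps the readthrough gene SAA2-SAA4, so reads of both may be mixed, and its promoter above holds the C/EBP matches. SAA1 and SAA2, the inducible family members, were at or near 0 in every library.

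SERPINA3, which encodes alpha-1 antichymotrypsin, an inhibitor of neutrophil cathepsin G (14:94612391-94624053), rose. It had 3698, 2221 and 3681 normalized counts with NTG, 8662, 5860 and 9543 with siINO80#1 and 5334, 7394 and 5893 with siINO80#2. All 6 knockdown libraries were above all 3 NTG libraries, at 1.33 (SE 0.22, adjusted p = 0.00084) and 0.98 (SE 0.22, adjusted p = 0.00355). With DMSO and NTG it had 1912 and 2208, with siMCRS1 4054, 5873 and 4069, with EPZ-6438 and NTG 2170, 4168 and 2938, and with both 5240 and 6881. The groups again did not overlap within a treatment, and SERPINA3 rose by 1.16 (SE 0.25, adjusted p = 0.00319) and by 1.01 (SE 0.25, adjusted p = 0.00585), the latter not without library B of EPZ-6438 and siMCRS1 (adjusted p = 0.0679). SERPINA1, on the same chromosome at 14:94376747-94390635, was called in none of the 4 comparisons, with log2 fold changes from -0.26 to 0.05.

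HPX, the haem-binding protein hemopexin (11:6431049-6440987), had 338, 394 and 584 normalized counts with NTG, 271, 213 and 297 with siINO80#1 and 172, 175 and 121 with siINO80#2. It fell by 0.73 (SE 0.22, adjusted p = 0.0197) and by 1.47 (SE 0.22, adjusted p = 0.00019). The first of these was lost without NTG library C (adjusted p = 0.0798) or siINO80#1 library B (adjusted p = 0.08). With siMCRS1 HPX was at -0.29 and -0.11 and was not called (adjusted p = 0.403 and 0.752). HP, haptoglobin, which binds free haemoglobin (16:72054505-72061055), had 2061, 1794 and 2378 with NTG, 2393, 1789 and 2443 with siINO80#1 and 1237, 1349 and 1082 with siINO80#2. It was lower with siINO80#2, at -0.76 (SE 0.14, adjusted p = 0.00087), and was not called in the other 3 comparisons with NTG. The orosomucoid genes ORM1 and ORM2, which are nearly identical and may have exchanged reads, changed little. ORM2 was lower with siINO80#2 (-0.37, SE 0.07, adjusted p = 0.00146), and ORM1 was higher with siMCRS1 (0.29, adjusted p = 0.0334, and 0.28, adjusted p = 0.0368). Both ORM1 calls were lost when libraries were scaled to equal totals (0.05 and 0.04), under quantile normalization (0.09 and 0.00), with no filter or no variance trend (adjusted p 0.0564 to 0.062), in fits of only the groups compared (adjusted p = 0.0556 and 0.0698), and without any of 4 single libraries in DMSO (adjusted p up to 0.122) or any of 6 in EPZ-6438 (adjusted p up to 0.152).

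The inter-alpha inhibitor genes, a family named for a hyaluronan-linked plasma protease inhibitor, included ITIH4, an acute phase member of the family (3:52812962-52830672). ITIH4 had 49.1, 40.0 and 73.0 normalized counts with NTG, 35.8, 20.8 and 35.0 with siINO80#1 and 20.2, 16.1 and 15.1 with siINO80#2. It fell by 0.80 (SE 0.29, adjusted p = 0.0477) and by 1.57 (SE 0.29, adjusted p = 0.00095), and the first call was lost without any of 7 of the 9 libraries (adjusted p 0.0526 to 0.187) and with no filter, a pseudocount of 0.1 or quantile normalization (adjusted p 0.05 to 0.0941). With siMCRS1 it went from 20.1 and 33.4 to 8.90, 5.51 and 2.87 in DMSO, and from 31.2, 74.6 and 51.5 to 20.8 and 17.8 in EPZ-6438. That was a log2 fold change of -2.10 (SE 0.48, adjusted p = 0.00467) and -1.32 (SE 0.48, adjusted p = 0.0391), the second of which was lost without any of 5 libraries (adjusted p 0.05 to 0.169) and with no filter, a pseudocount of 0.1 or quantile normalization (adjusted p 0.052 to 0.134). The gene overlaps ITIH4-AS1. In DMSO the lowest siMCRS1 library lay under its level of 3 reads for ITIH4, and for ITIH1 described next. Both genes were thus near their limit of detection there. ITIH1, in the same cluster at 3:52777599-52792068, was called with siINO80#2 (-2.16, SE 0.47, adjusted p = 0.00266) and with siMCRS1 in DMSO (-2.15, SE 0.66, adjusted p = 0.0208). The DMSO call was lost without either DMSO-treated NTG library (adjusted p = 0.0937 and 0.0746).

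ITIH2, on another chromosome, moved the other way from ITIH4, with called rises of 0.32 with siINO80#1 (SE 0.09, adjusted p = 0.0191), 0.53 with siMCRS1 in DMSO (SE 0.14, adjusted p = 0.00957) and 0.80 with siMCRS1 in EPZ-6438 (SE 0.14, adjusted p = 0.00078). The first was lost under equal totals (adjusted p = 0.0649), quantile normalization (adjusted p = 0.0761) or without NTG library B, siINO80#1 library A or siINO80#1 library C (adjusted p 0.0746 to 0.0802). The second was lost under equal totals (adjusted p = 0.0542), quantile normalization (adjusted p = 0.138) or without DMSO-treated NTG library 3 (adjusted p = 0.0899). AMBP, whose precursor yields the light chain bikunin, was called in no knockdown. Among the negative acute phase genes, 0 of 4 was called with siINO80#1 or with siMCRS1 in either treatment. With siINO80#2 the thyroxine and retinol carriers TTR (-0.59, SE 0.14, adjusted p = 0.0045) and RBP4 (-0.43, SE 0.12, adjusted p = 0.0112) were lower, and AHSG and FETUB, of the fetuin family, were not called.

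**Figure D3:**
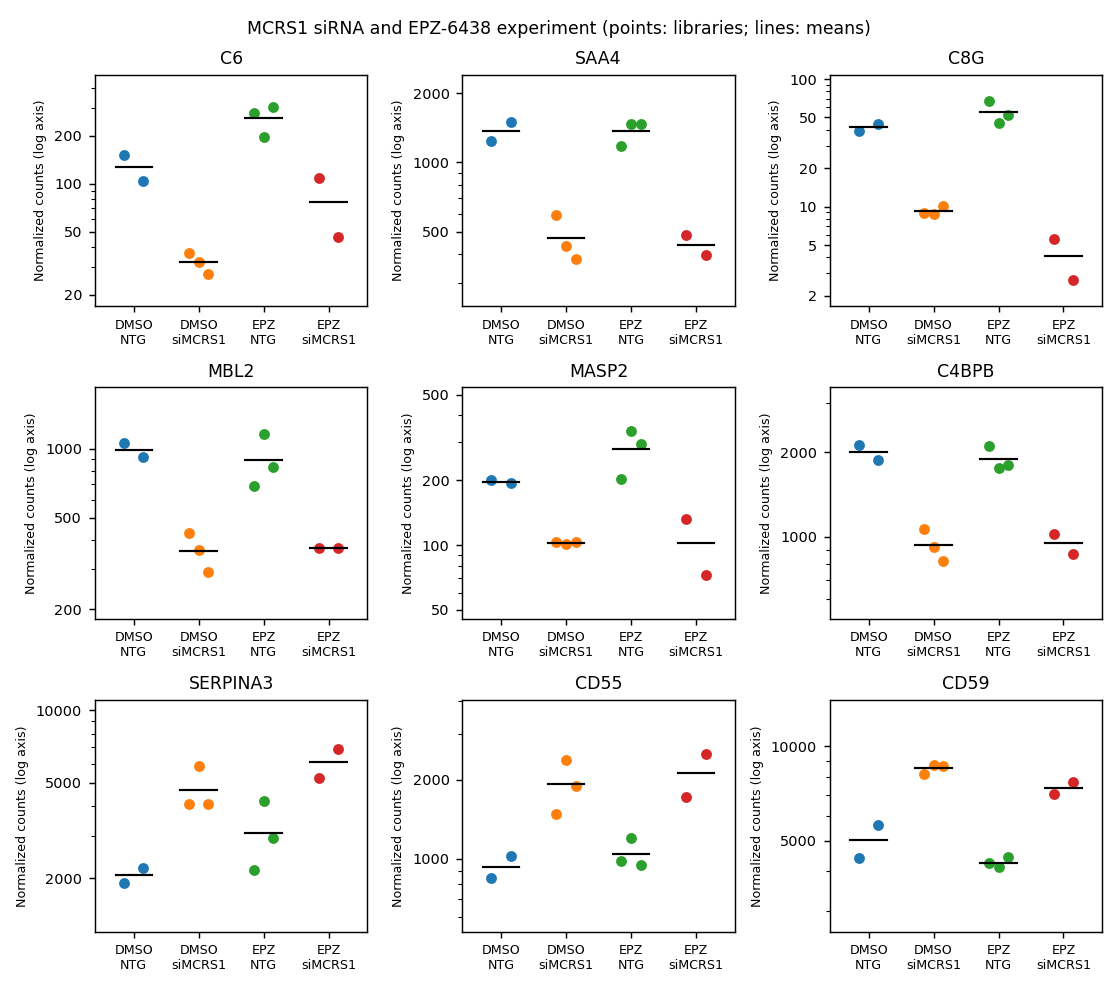
Normalized counts (log axis) of 9 genes in each library of the drug experiment, for DMSO and NTG (2 libraries), DMSO and siMCRS1 (3), EPZ-6438 and NTG (3) and EPZ-6438 and siMCRS1 (2), with lines at the group means. C8G falls to 5.60 and 2.66 with siMCRS1 in EPZ-6438, C6, SAA4, MBL2, MASP2 and C4BPB are lower with siMCRS1 in both treatments, and SERPINA3, CD55 and CD59 are higher.

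The siMCRS1 effect was compared between treatments through groups that share no library. Of the 38 genes, 5 were called higher in both treatments (SERPINA3, CD55, CD59, ITIH2 and ORM1; 20.8% of all genes tested were) and 9 lower in both (C8G, C6, SAA4, ITIH4, MBL2, C4BPB, C8A, MASP2 and C4BPA; 22% of all genes). The interaction of siMCRS1 with EPZ-6438 was called for 0 of the 38 and for 0% of all genes by limma, with 1 of the 38 at an unadjusted p under 0.05 (C8G, at -1.43), and for 0 by edgeR.

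The siINO80 siRNAs differed in a set of these genes. Between siINO80#2 and siINO80#1, 2 genes were called higher and 11 lower, where 9.48% and 12.6% of all genes tested were (22.1% in all), and the median log2 difference was -0.32 against -0.01 over all genes. CD46 differed most, at -1.51 (SE 0.08, adjusted p = 5.4e-06), a level with siINO80#2 that was 35.4% of that with siINO80#1. HP differed by -0.84 (SE 0.14, adjusted p = 0.00231), C4BPB by -0.67 (SE 0.15, adjusted p = 0.00924) and HPX by -0.74 (SE 0.22, adjusted p = 0.0322). MASP1 differed the other way, by 0.78 (SE 0.24, adjusted p = 0.0384). C5 had 5457, 4077 and 5491 normalized counts with siINO80#1 and 2898, 3012 and 2978 with siINO80#2, against 3132, 2560 and 2984 with NTG. So C5 with siINO80#2 lay in its NTG range and the siRNAs differed by -0.74 (SE 0.12, adjusted p = 0.00177). The HPX difference was lost without siINO80#1 library A or C or siINO80#2 library C (adjusted p 0.085 to 0.109) and with no variance trend (adjusted p = 0.0616). The MASP1 difference was lost without NTG library A, siINO80#1 library A or B, or siINO80#2 library B or C (adjusted p 0.0544 to 0.132), and under equal totals or with no variance trend (adjusted p = 0.0555 and 0.0727). Without siINO80#1 library A, 5 members were called in this comparison, without siINO80#1 library C 7 and without siINO80#2 library A 8. All genes called fell too, from 3096 to 1948, 2042 and 2272.

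EPZ-6438 against DMSO gave no called member in the fit of all 4 groups without a replicate term. With NTG, 0 of the 38 was called by limma (0.384% of all genes tested were, 0.321% higher and 0.0629% lower) and 0 by edgeR. Unadjusted, 13 were higher and 0 lower at a p under 0.05 by limma (8.55% and 8.52% of all genes were) and 16 by edgeR, and the limma count ran from 6 without DMSO-treated NTG library 3 to 20 without library 1 of EPZ-6438 and NTG. The median log2 fold change was 0.45, against -0.03 over all genes. Of the 38, 31 had a positive log2 fold change (46% of all genes did). Of the same 38, 19 lay wholly above their DMSO libraries (16.4% of all genes did) and 0 wholly below (17.1%). With siMCRS1, 0 of the 38 was called by limma (0.0908% of all genes, 0.0838% higher and 0.00699% lower) and 0 by edgeR. At an unadjusted p under 0.05, 8 were higher and 1 lower (5.39% and 3.73% of all genes), and the median was 0.24 against -0.02. Each of these counts is from groups of 2 and 3 libraries.

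The values of those furthest out were as follows. SERPING1, named after its values were seen, had 29.7 and 21.0 normalized counts with DMSO and NTG and 129, 95.9 and 180 with EPZ-6438 and NTG. It lay at 2.34 (SE 0.65, adjusted p = 0.12), and in a fit of only the groups compared it was the 1 member called. With siMCRS1 it had 25.6, 107 and 21.5 in DMSO and 241 and 74.6 in EPZ-6438, ranges that overlap. C1R, likewise named afterwards, had 52.7 and 77.3 with DMSO and NTG and 124, 188 and 165 with EPZ-6438 and NTG, and lay at 1.28 (SE 0.30, adjusted p = 0.088). C6, described above, lay at 1.02 with NTG and 1.13 with siMCRS1 and was not called. C8G lay at 0.37 with NTG and -1.06 with siMCRS1.

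**Figure D4:**
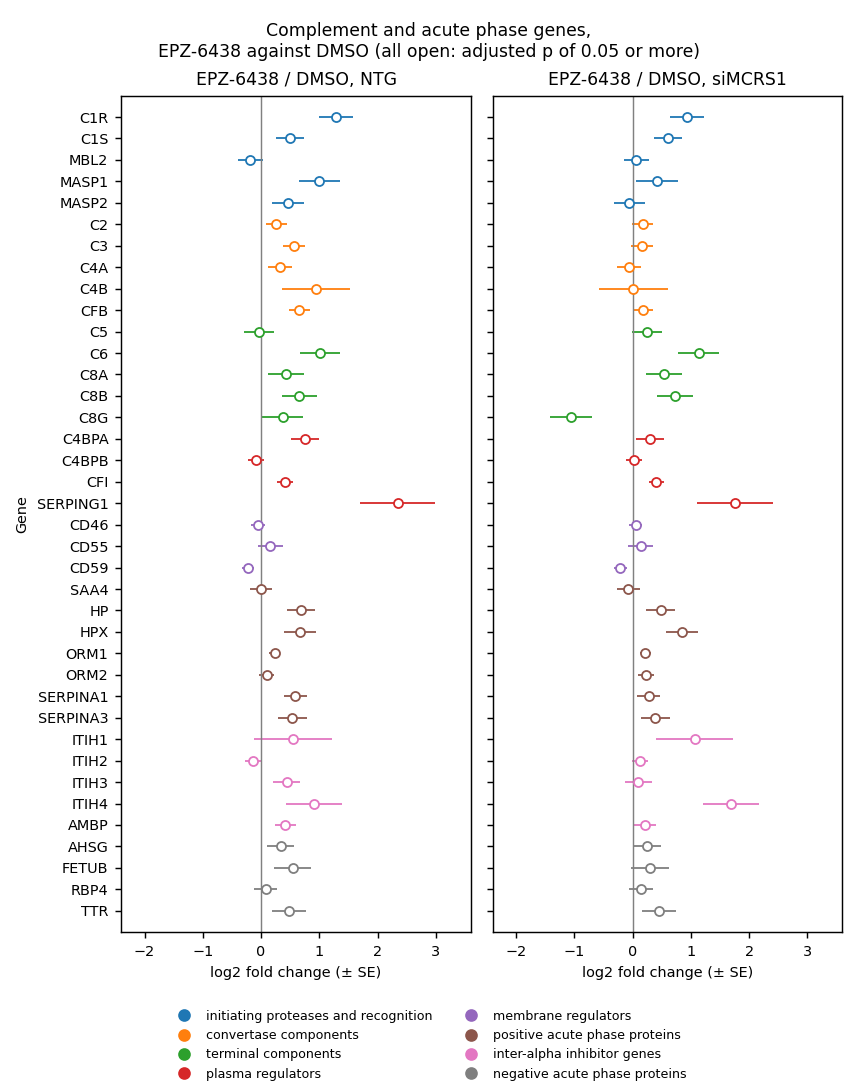
Log2 fold change of EPZ-6438 against DMSO (horizontal axis, log2 of normalized count + 1) of the 38 genes tested, with NTG and with siMCRS1 in separate panels; bars are the SE and all points are open because none had an adjusted p under 0.05. With NTG 31 of the 38 lie right of 0, as 46% of all genes tested did, and SERPING1 lies furthest at 2.34.

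Among genes that carry acute phase signals to the liver cell, IL6ST and IL6R encode receptor chains and were higher in all 4 comparisons. Of 36 signalling genes listed, 35 were tested, and 11 were called higher and 3 lower with siINO80#1, 11 and 14 with siINO80#2, 15 and 8 with siMCRS1 in DMSO, and 14 and 10 with siMCRS1 in EPZ-6438. That is 40%, 71.4%, 65.7% and 68.6% of the list, where 41.6%, 55%, 47.7% and 53.7% of all genes were called. IL6ST, the gp130 receptor chain shared by the interleukin-6 family, rose by 2.02 and 1.59 with the INO80 siRNAs (adjusted p = 7.9e-08 and 1.5e-07) and by 2.60 and 2.67 with siMCRS1 (adjusted p = 8.1e-06 and 3.9e-06). IL6R, the interleukin-6 binding chain, rose by 1.10, 1.63, 1.34 and 1.42 in the same order. SOCS3, the feedback inhibitor induced by STAT3, rose by 1.25, 1.64, 1.57 and 2.40. By contrast SOCS1, an inhibitor of JAK kinases, was lower in all 4 (-1.20, -2.01, -0.84 and -1.14), as was NFKBIA, the NF-kB inhibitor, named after its values were seen (-0.67, -0.86, -0.78 and -1.02), and TYK2, a JAK kinase, was lower with siMCRS1 (-1.35 and -1.73). The SOCS1 call with siMCRS1 in DMSO was close to the threshold (adjusted p = 0.0464 by limma). For SOCS1 the siMCRS1 and NTG libraries did not stay apart in both treatments.

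Further acute phase and complement genes outside the 43 were read from lists of 25 and 31. Of 21 acute phase genes tested, 2 were called higher and 4 lower with siINO80#1, 2 and 13 with siINO80#2, 2 and 5 with siMCRS1 in DMSO and 3 and 7 in EPZ-6438. The share called was 28.6% with siINO80#1, 33.3% with siMCRS1 in DMSO and 47.6% with the drug present, each below that of all genes, and 71.4% with siINO80#2, above it. KNG1, the kininogen gene, was at -1.81 and -2.89 with the INO80 siRNAs and -1.61 and -1.90 with siMCRS1. SERPINC1, antithrombin, was at -1.68, -2.21, -1.24 and -1.11, and FN1, fibronectin, at 0.89, 0.77, 1.32 and 1.28, all of them called. Of the other complement genes 13 were tested in the INO80 experiment, with 0 higher and 3 lower for siINO80#1 and 1 and 4 for siINO80#2. Of 12 tested in the drug experiment, 0 were higher and 3 lower with siMCRS1 in either treatment. The shares called, 23.1%, 38.5%, 25% and 25% in the 4 comparisons, were each below that of all genes. CFD, factor D, which cleaves factor B, was at -2.00 and -2.31, and C1RL, a relative of C1R, at -1.90 and -2.13, all called.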

How the data were processed

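For each experiment the authors deposited a signal that is never below 0, the counts of a gene over the library's size factor (100% of values were whole multiples of the library's smallest step, within 0.01). The labels describe stranded libraries. The submitters' processing notes name kallisto, DESeq2 and GRCh38, with no versions or roles. Replicates are separate samples in the labels, and separate cultures are not stated, so p-values may measure technical spread.

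The 43 genes, the lists and the rules were chosen with earlier results of these data known. Values in every library are given for up to 10 genes called by both siINO80 siRNAs, 10 called for siMCRS1 in both treatments (no overlap, largest first), 6 called between siINO80 siRNAs and others named as chosen afterwards. The values, as log2(value + 1), were fitted with limma 3.58.1 in R 4.3.3 (lmFit, eBayes with a trend, all groups of a table in 1 fit), tested on simulated data. Alternatives included edgeR 4.0.16 on recovered reads, other pseudocounts, filters and scalings, and each library left out. Same-lettered NTG and siINO80#1 libraries deviated together (r 0.247, 0.263 and 0.135 across genes, every pair over 0.1). Differently lettered libraries of these groups were at -0.219 to -0.0417. Between the INO80 siRNAs, however, differently lettered libraries reached 0.104, so a value over 0.1 does not by itself mark a pair. The letters of NTG and siINO80#1, from the labels, were taken as pairs. The main counts are without a replicate block, which is given where it changes a call. The block was fitted over all libraries of the experiment, siINO80#2 included. Figures used matplotlib 3.10.9. A floor of 3 reads covers counting error only.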

Additional observations from a re-analysis of the deposited data

Results flagged for a closer look

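C8G, the gamma chain of C8, was set apart by the direction of its EPZ-6438 effects. Its EPZ-6438 libraries lay wholly above DMSO with NTG and wholly below DMSO with siMCRS1, by small margins. The nearest libraries of DMSO and EPZ-6438 were at 44.9 and 45.5 normalized counts with NTG and at 8.81 and 5.60 with siMCRS1. In these libraries 1 read was worth 0.710 to 1.10 normalized counts. The siMCRS1 effect was -2.07 on the log2 scale in DMSO and -3.50 in EPZ-6438, in 2 or 3 libraries a group. That is an interaction of -1.43 (unadjusted p = 0.0165, adjusted p = 1 over all genes, by limma). The lower of the EPZ-6438 and siMCRS1 libraries was at the level of 3 reads, and the part of depth in the difference was not tested.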

How the results depend on the processing

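Of 83 calls of single genes, 56 held under every alternative run, 27 lost significance under at least 1 and 0 changed direction. The calls of C6, SAA4, MBL2, C4BPB and CD59 against NTG held under all alternatives run. Between siINO80#2 and siINO80#1, 7 members were called without a variance trend, against 13, and 5 to 14 with a library left out. All genes called there were 2641 without the trend, against 3096, and 1948 to 3481 with a library left out. For siMCRS1 in EPZ-6438, 11 to 23 were called with a library left out (11 without library B of EPZ-6438 and siMCRS1, 23 without DMSO-treated siMCRS1 library 3). For EPZ-6438 with NTG, a fit of only the groups compared called 1 member. Equal totals moved the median of all genes by -0.23 on the log2 scale for siMCRS1 in either treatment and by -0.11 for siINO80#2, and the members called for siMCRS1 in DMSO were then 3 higher and 14 lower, against 5 and 10. The causes were not tested.

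In the INO80 experiment, same-lettered libraries of siINO80#2 correlated by -0.0766 to 0.0946 with NTG and by 0.00364 to 0.134 with siINO80#1, so for those comparisons the letters were not taken as pairs. With the replicate block 17 members were called for siINO80#1, against 14. For siINO80#2 26 were called, against 22 (C3, MASP1, SERPING1 and ITIH3 gained). Between the siRNAs 18 were called, against 13 (C1S, C3, C4BPA, ITIH3 and RBP4 gained). All genes called were 6327, 8127 and 3590 with the block, against 5833, 7725 and 3096. In the drug experiment, columns of 3 groups carry numbers that are not the letters of the labels, and DMSO-treated NTG cells share only 2 of them with another group. Same-numbered libraries correlated by -0.0169 to 0.303 (7 pairs) and others by -0.303 to 0.0411 (14 pairs). The 2 libraries of DMSO-treated NTG cells deviate from their mean by exact opposites. Each value with 1 of them is thus mirrored by the other, and these pairs are not separate evidence. Between the other 2 numbered groups, same-numbered libraries correlated by -0.0169 to 0.207 and others by -0.204 to 0.0147. A replicate block by that number, chosen after seeing the data, called 5 members for EPZ-6438 with NTG, all higher. They were C1R (1.11), C6 (1.11), CFB (0.58), MASP1 (1.09) and HP (0.49). The same 3 groups without the block gave 0. All genes called were 1161 with the block and 59 without it. For siMCRS1 in DMSO the block called 19, against 16 in those groups without it. The genes gained over the fit of all groups were C2, C4A, MASP1 and ITIH3. All genes called for siMCRS1 in DMSO were 8007 with the block and 6642 without it. For the comparisons with EPZ-6438-treated siMCRS1 cells, no paired analysis was possible because their columns carry letters and share no number with the other groups.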
